A study of Mus musculus with 6 samples.

Results

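The transcripts described here are those of 9 genes at the start of TGF-beta signalling: the ligand gene Tgfb1, the type II receptor gene Tgfbr2, the type I receptor genes Tgfbr1 and Acvr1b, the co-receptor genes Tgfbr3 and Nrp1, and the signal transducer genes Smad2, Smad3 and Smad4. They were chosen by name, with earlier results of these data known, and all 9 were found among the 17985 genes of the table. Levels were measured by RNA-seq in iNKT1 cells of the thymus, the T-bet-expressing subset of invariant natural killer T cells, from mice on a C57BL/6 background. Both groups carried the Tbx21CreTg transgene, in which the regulatory sequence of the T-bet gene Tbx21 drives Cre recombinase, and the Cre-dependent reporter allele Rosa26-LSL-YFP+/+. The control group (Ctrl, 3 libraries) carried these alone, and the conditional knockout group (cKO, 3 libraries) carried Tgfbr2F/F, loxP-flanked alleles of the type II receptor gene, in addition. Neither group was treated. The labels used here give no age, no sort gate, no pooling of animals and no exon that the loxP sites flank. The replicates are called independent in the series text, but separate animals are not named, and p-values measure the spread between these libraries.

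TGF-beta is secreted as a latent dimer and, once activated, binds the type II receptor, which recruits and phosphorylates the type I receptor TGFBR1. TGFBR1, and likewise the activin receptor ACVR1B, phosphorylates SMAD2 and SMAD3, which enter the nucleus together with SMAD4 and act on target genes. Betaglycan, the product of Tgfbr3, presents ligand to the type II receptor and can also be shed as a soluble trap. Neuropilin-1, the product of Nrp1, is a semaphorin and VEGF co-receptor that can also bind TGF-beta. In T cells the pathway supports the thymic development of iNKT cells and restrains effector programmes.

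In cKO cells the type II receptor transcript was at 61.0% of its Ctrl level, the Tgfbr3 transcript at 8.57% and the Nrp1 transcript at 32.2%, whereas no other member fell past the threshold in any fit. Levels are in CPM, reads of a gene scaled to the size of its library, and differences are of log2(CPM + 1), cKO minus Ctrl, tested with limma on the 15691 genes that averaged 1 CPM or more, at an adjusted p of 0.05. All 9 members were tested. Of these, 2 passed, Tgfbr2 and Tgfbr3, both lower, where 0.459% of all tested genes were called lower and 0.663% were called in either direction. With the replicate number as a block, which compares the same-numbered Ctrl and cKO libraries, Nrp1 passed too, so that 3 members were lower, against a background of 1.64% called lower and 2.87% in either direction. No member was called higher by limma, where the background was 0.204% without the block and 1.24% with it. At an unadjusted p under 0.05 there were 3 members lower and 2 higher (Smad2 and Smad3), where the background was 3.68% lower and 2.33% higher. DESeq2 called 1 higher, Smad3, against 2.21% of the genes it gave an adjusted p. In bulk RNA, fewer cells of a type and less RNA per cell cannot be told apart.

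**Figure D1:**
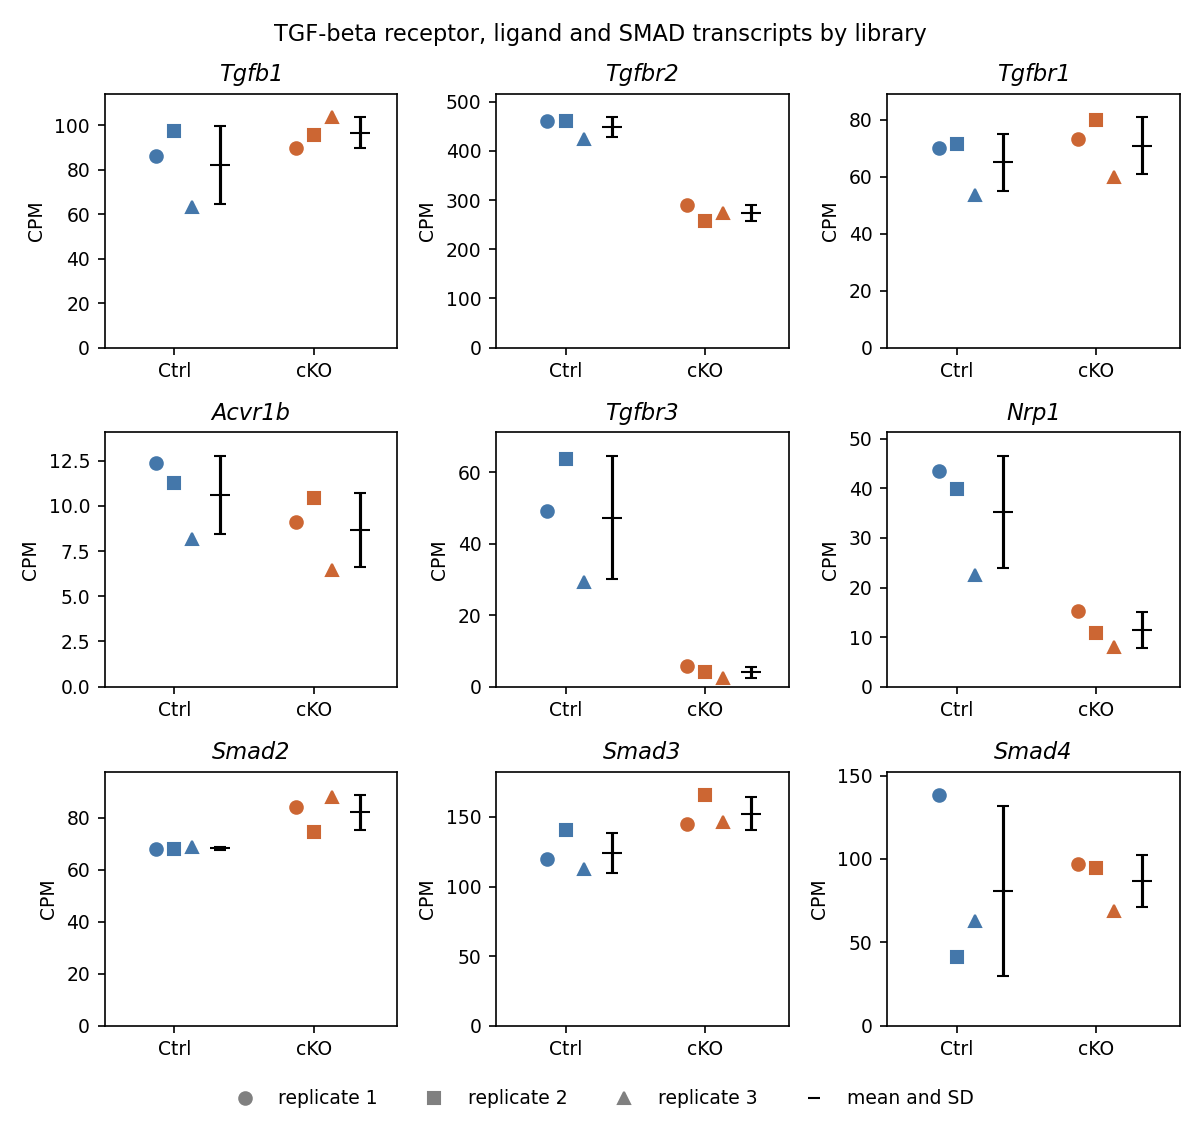
CPM of each of the 9 genes in the 3 Ctrl and 3 cKO libraries, with marker shape giving the replicate number and the black bar the mean and SD of 3 libraries; each panel has its own axis from 0. The cKO libraries lie below all Ctrl libraries for Tgfbr2, Tgfbr3 and Nrp1 and above them for Smad2 and Smad3, and the groups overlap for the other 4 genes.

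The promoters of the falling members are shown so that the sequence beside the measured change can be read; RefSeq windows (build GRCm38.p6) were at hand for 6 of the 9 members, and among the 3 that fell for Tgfbr2 and Nrp1. Each line gives the 250 bases upstream of the annotated start, on the strand of the gene. Capitals mark the SMAD half-site GTCT or its reverse complement AGAC.
Tgfbr2, chr9:116175364-116175613, minus strand: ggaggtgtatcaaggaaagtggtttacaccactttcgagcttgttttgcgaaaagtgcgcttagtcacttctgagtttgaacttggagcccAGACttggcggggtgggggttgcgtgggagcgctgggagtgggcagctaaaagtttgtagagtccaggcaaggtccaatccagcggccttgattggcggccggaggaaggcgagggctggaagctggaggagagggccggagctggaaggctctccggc
Nrp1, chr8:128358823-128359072, plus strand: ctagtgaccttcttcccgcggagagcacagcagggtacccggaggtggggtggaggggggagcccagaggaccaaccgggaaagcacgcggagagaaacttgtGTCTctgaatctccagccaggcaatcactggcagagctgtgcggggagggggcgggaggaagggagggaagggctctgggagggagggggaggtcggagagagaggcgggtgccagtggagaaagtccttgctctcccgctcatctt
Each window held 1 half-site on either strand, and 82.9% of 32851 promoter windows of this length held at least 1. The half-site of Tgfbr2 lies within the longer motif CAGAC (on the strand as printed), which 42.2% of windows hold on either strand and which was not matched in the Nrp1 window. A GC-rich SMAD motif, GGCGC, was found in 32.0% of windows on either strand and in neither of these. The RUNX motif TGTGGT, in 14.0% of windows, and the AP-1 motif (TGA, any base, then TCA), in 6.75%, were likewise matched in neither. Both windows were richer in G and C than the median window of 52.4%, at 58.4% for Tgfbr2 and 64.4% for Nrp1, and held 12 and 11 CpG dinucleotides against a median of 6. Among the members not called, the windows of Smad3, Tgfb1 and Acvr1b were 69.2%, 75.2% and 78.8% G and C, and each held 1 half-site. GGCGC was matched in the windows of Tgfb1 and Acvr1b but not in that of Smad3. The 2 annotated starts of Tgfbr1 differed, at 74.8% upstream and 52.8% downstream. The upstream window held 29 CpG, GGCGC and no half-site, and the downstream window held 3 CpG, 2 half-sites and 1 CAGAC.

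Tgfbr2 (ENSMUSG00000032440, chromosome 9, 116087698 to 116175363 on mm10) is the targeted gene and encodes the receptor that binds TGF-beta first. It had 461, 461 and 425 CPM in the Ctrl libraries (replicates 1, 2 and 3) and 289.8, 258 and 274 CPM in their cKO counterparts, from 8357 to 22501 reads per library. The highest cKO value lay below the lowest Ctrl value, and the spread within each group was small. The difference was -0.71, with a 95% confidence interval from -0.91 to -0.51 and a limma adjusted p of 0.0207. Within replicates 1 and 2 it was -0.75 (limma adjusted p 0.00198), and in the replicate 3 pair -0.63. The authors' deposited table lists Tgfbr2 at -0.64 on the log2 scale with an adjusted p of 0.373 and leaves it unmarked.

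The count covers the whole gene, and so does not measure the share of cells or alleles that had recombined. In the longest coding transcript of Tgfbr2 in GENCODE M21 (8092 bases, 8 exons), the last exon alone held 77.4% of the bases, and the other 7 exons held between 0.927% and 9.89% each. That last exon runs from 116084293 to 116090557, whereas the deposited gene starts at 116087698. Part of the exon thus lies outside the deposited span, and these shares are those of the M21 model and not of the counted gene. Reads from the last exon are counted alike whether or not an upstream exon is lost. Reads were not split by exon here, and the part of such reads in the cKO level of Tgfbr2 was not tested. The call ended under edgeR's quasi-likelihood fit of group alone (adjusted p 0.0620), under TMM scaling (limma adjusted p 0.0947) and under DESeq2-type size factors (limma adjusted p 0.0522). It also ended when any library but cKO replicate 3 was left out, with limma adjusted p values from 0.0545 to 0.156.

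Tgfbr3 (ENSMUSG00000029287, chromosome 5, 107106570 to 107289629), which encodes the betaglycan co-receptor, showed the largest change of the 9 genes and ranked 11 among the 15691 tested genes from the lowest difference upward. It had 49.2, 63.7 and 29.2 CPM in the Ctrl libraries (replicates 1, 2 and 3) and 5.65, 4.02 and 2.497 CPM in their cKO counterparts. The highest cKO library was far below the lowest Ctrl library, and replicate 3 was the lowest in each group. The cKO values rest on 163, 169 and 170 reads and the Ctrl values on 1544 to 1959, so the transcript was low but well above single reads in cKO.

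The mean of Tgfbr3 fell from 47.4 ± 17.3 to 4.06 ± 1.58 CPM (SD, n = 3 each), 11.7-fold lower in cKO. The log2 difference was -3.24, with a 95% confidence interval from -4.06 to -2.41 and a limma adjusted p of 0.0156. The same-numbered pairs differed by -2.92, -3.69 and -3.11. With the replicate block the limma adjusted p was 5.1e-05, and within replicates 1 and 2 alone it was 9.44e-05. For Tgfbr3 the authors' deposited table lists a log2 fold change of -3.50 (adjusted p 2.08e-16) and marks the gene as lower, as it does 0.378% of its genes, with 0.234% marked higher. Without the block the call ended under edgeR's quasi-likelihood test (adjusted p 0.0598) and limma-voom (adjusted p 0.0946), and without Ctrl replicate 1 (limma adjusted p 0.0992), Ctrl replicate 2 (0.0907) or cKO replicate 2 (0.0910). The exons of Tgfbr3 share 297 bases, 4.54% of their merged length, with the neighbouring model Gm43422.

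Nrp1 (ENSMUSG00000025810, chromosome 8, 128359073 to 128505462), the neuropilin gene, had 43.6, 39.9 and 22.4 CPM in the Ctrl libraries (replicates 1, 2 and 3) and 15.2, 10.9 and 7.96 CPM in their cKO counterparts. The groups did not overlap; the lowest Ctrl library was replicate 3 and the highest cKO library replicate 1. Within each replicate number the difference was similar, at -1.46, -1.78 and -1.39. The mean went from 35.3 ± 11.3 to 11.4 ± 3.66 CPM (SD, n = 3 each).

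The log2 difference of Nrp1 was -1.54, with a 95% confidence interval from -2.29 to -0.80, and it did not pass without the block (limma adjusted p 0.148). With the replicate block the interval narrowed to -1.87 to -1.22 and the limma adjusted p was 0.000641; this call was kept when both libraries of any 1 replicate number were left out. Within replicates 1 and 2 alone, without the block, the difference was -1.62 (limma adjusted p 0.00208). DESeq2 called Nrp1 as well (adjusted p 2.44e-05). Without the block it did not pass under TMM scaling (limma adjusted p 0.0962) or DESeq2-type size factors (limma adjusted p 0.121). Nor did it pass under limma-voom (adjusted p 0.1998) or edgeR's quasi-likelihood test (adjusted p 0.245). No fit that left out 1 library called it (limma adjusted p from 0.112 to 0.594). The authors' deposited table marked Nrp1 as lower, with a log2 fold change of -1.58 and an adjusted p of 0.00226, and marked no member besides Nrp1 and Tgfbr3.

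Both co-receptor genes are also expressed by other cells that a thymic sample can hold, so marker lists for those cells were read in the same libraries. The 11 T and iNKT1 markers, among them Cd3e and Tbx21, summed to 9118 to 10986 CPM in Ctrl and 9148 to 12784 CPM in cKO. Among them Xcl1, a chemokine gene, fell (limma adjusted p 0.0281), and with the block the cytokine receptor gene Il2rb rose (limma adjusted p 0.0166). For plasmacytoid dendritic cells, which carry Nrp1, 4 of 5 markers were in the table and summed to 122 to 128 CPM in Ctrl and 116 to 143 CPM in cKO; most of this was Bst2, which many cells express, at 93.0 to 135 CPM, while Ccr9 reached 22.6 CPM, Tcf4 15.5 CPM and the defining marker Siglech 2.38 CPM. For endothelial cells, 4 of 5 markers were in the table and summed to 30.6 to 37.9 CPM in Ctrl and 59.6 to 73.7 CPM in cKO. That rise was in Pecam1, which passed (limma adjusted p 0.0423) and which T cells also express. The endothelial genes Kdr and Emcn reached 7.21 and 7.22 CPM in replicates 1 and 2 and were listed at 0 in replicate 3 of both groups, libraries in which 4406 (Ctrl) and 4590 (cKO) genes are listed at 0.

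Regulatory T cells also carry Nrp1. Of their 4 markers, Foxp3 was not in the table. The other 3 summed to 47.5 to 55.3 CPM in Ctrl and 63.7 to 83.9 CPM in cKO. The higher sum was that of Il2ra, the only one to pass (limma adjusted p 0.00215). Ikzf2, the most abundant of them in Ctrl, had 41.3, 43.7 and 38.2 CPM in Ctrl and 38.9, 45.4 and 22.7 CPM in cKO, a difference of -0.25 that did not pass, and Ctla4 reached 2.43 CPM. Double-positive thymocyte markers, 5 of 7 in the table, summed to 5.68 to 18.4 CPM in Ctrl and 9.75 to 23.6 CPM in cKO. Summed levels of the 3 myeloid markers in the table, of 6, were 0.774 to 8.56 CPM in Ctrl and 1.56 to 8.46 CPM in cKO, and those of the 3 B cell markers, of 5, were 4.32 to 11.4 CPM and 3.14 to 11.7 CPM. The markers of NK cells and ILC1, 4 of 4, summed to 8.94 to 56.0 CPM and 22.4 to 42.8 CPM, and Klrg1 rose with the block (limma adjusted p 0.0403). Those of iNKT2 cells, 4 of 4, summed to 236 to 282 CPM and 208 to 276 CPM; with the block Plac8 rose (limma adjusted p 0.00613) and Il4 fell (0.00806). Those of iNKT17 cells, 2 of 4, summed to 0.264 to 3.24 CPM and 2.34 to 3.71 CPM. Epithelial and stromal markers, 2 of 6, summed to 5.68 to 10.5 CPM and 3.85 to 10.96 CPM, and the erythroid marker Alas2, 1 of 4, was at 0.0755 to 3.84 CPM and 0.132 to 4.13 CPM. No marker was at 0 in all 6 libraries. The part of these cells in the member results was not tested.

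**Figure D2:**
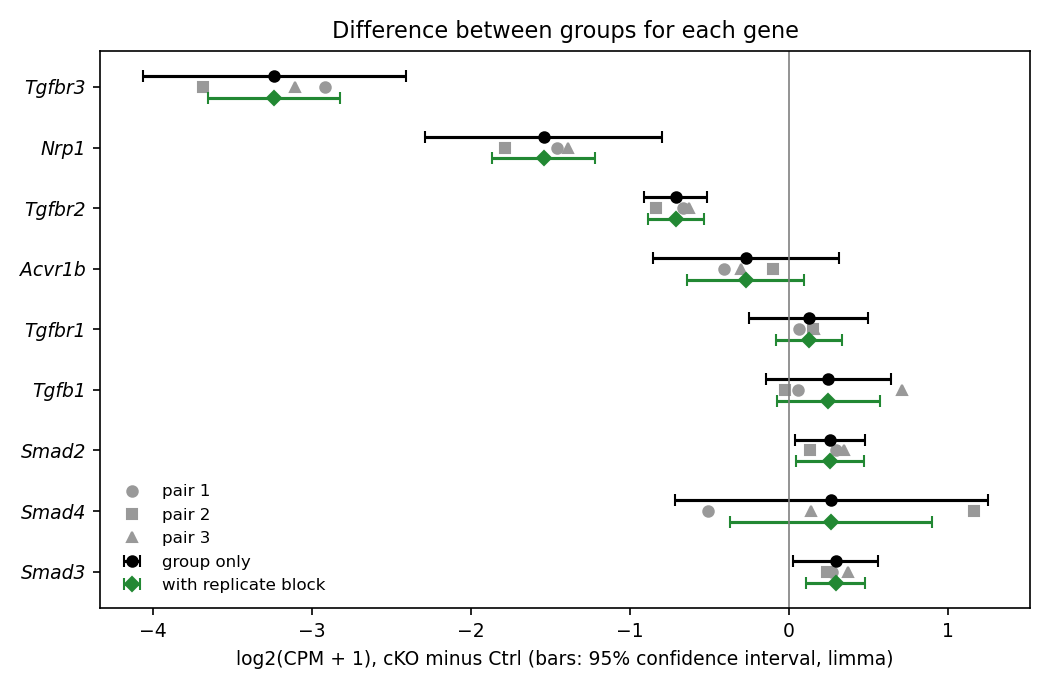
Difference in log2(CPM + 1), cKO minus Ctrl, for each of the 9 genes; black circles and green diamonds give the limma estimate with its 95% confidence interval for the group-only fit and the fit with the replicate block, and grey markers the same-numbered pairs. All 3 pairs of Tgfbr3, Nrp1 and Tgfbr2 lie well below 0, while the pairs of Smad4 range from -0.51 to 1.17.

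Neither type I receptor gene passed the threshold, and their differences were not tested against that of the type II receptor gene. Tgfbr1 (ENSMUSG00000007613, chromosome 4, 47353222 to 47414931), whose product is the partner kinase of the type II receptor, had 69.9, 71.6 and 53.5 CPM in the Ctrl libraries (replicates 1, 2 and 3) and 73.2, 79.7 and 59.8 CPM in their cKO counterparts. The groups overlapped, with replicate 3 lowest in each. The difference of 0.13 (95% confidence interval -0.25 to 0.50) did not pass (limma adjusted p 0.99998), and the interval leaves room for a rise of up to 0.50 or a fall of 0.25. Acvr1b (ENSMUSG00000000532, chromosome 15, 101174067 to 101213679), the type I receptor for activin and nodal ligands, was at 12.4, 11.2 and 8.20 CPM in Ctrl against 9.09, 10.4 and 6.46 CPM in cKO. It too had replicate 3 lowest in each group, and all 3 pairs were lower, at -0.41, -0.097 and -0.30. The difference of -0.27 did not pass (limma adjusted p 0.99998), and its 95% confidence interval, -0.85 to 0.31, includes the value of Tgfbr2.

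Tgfb1 (ENSMUSG00000002603, chromosome 7, 25687002 to 25705077) shows that the cells held transcript of the ligand as well as of its receptor. It had 86.4, 97.3 and 63.1 CPM in the Ctrl libraries (replicates 1, 2 and 3) and 90.002, 95.8 and 103.9 CPM in their cKO counterparts. The groups overlapped and the pairs were uneven, at 0.058 and -0.022 in replicates 1 and 2 and 0.71 in replicate 3. The difference of 0.25 (95% confidence interval -0.15 to 0.64) did not pass (limma adjusted p 0.99998), and in replicates 1 and 2 alone it was 0.018.

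The receptor-regulated SMAD genes were slightly higher in every cKO library, by amounts that did not pass over all genes. Smad2 (ENSMUSG00000024563, chromosome 18, 76241580 to 76305731) had 68.0, 67.8 and 68.7 CPM in the Ctrl libraries (replicates 1, 2 and 3) and 83.9, 74.5 and 87.7 CPM in their cKO counterparts. The cKO libraries were all above the Ctrl libraries, whose coefficient of variation was 0.661%; among 4143 genes within 2-fold of its level the median was 8.86%, and 0.579% had one as small. The log2 difference was 0.26 (95% confidence interval 0.042 to 0.48, limma adjusted p 0.647).

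Smad3 (ENSMUSG00000032402, chromosome 9, 63646767 to 63757994), whose product binds DNA directly, had 120, 140.3 and 113 CPM in the Ctrl libraries (replicates 1, 2 and 3) and 145, 166 and 146 CPM in their cKO counterparts. The lowest cKO library was just above the highest Ctrl library. The difference was 0.30 (95% confidence interval 0.028 to 0.56, limma adjusted p 0.716), and with the replicate block the limma adjusted p was 0.134. DESeq2 gave it an adjusted p of 0.0477, the only fit in which a SMAD member passed. Counting Smad2, Smad3, Tgfbr2, Tgfbr3 and Nrp1, the groups did not overlap for 5 of 9 members, where the background was 11% of tested genes (7.1% lower and 3.89% higher in cKO). The sign was the same in all 3 same-numbered pairs for 4 members that were lower (Tgfbr2, Tgfbr3, Nrp1 and Acvr1b) and 3 that were higher (Tgfbr1, Smad2 and Smad3), where the background was 18.5% and 11.5% of tested genes.

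Smad4 (ENSMUSG00000024515, chromosome 18, 73639009 to 73703780), the common partner of the receptor-regulated SMADs, varied most of the 9 members among the Ctrl libraries. In cKO, Smad4 varied less than Tgfbr3, Nrp1 and Acvr1b, with a coefficient of variation of 17.8% against 38.9%, 32.2% and 23.4%. It had 139, 41.4 and 62.6 CPM in Ctrl replicates 1, 2 and 3, from 4662, 1275 and 3317 reads, and at 97.1, 94.4 and 69.0 CPM in the cKO replicates. Ctrl replicate 1 was above every cKO library, and Ctrl replicates 2 and 3 were below every cKO library. The coefficient of variation among the Ctrl libraries was 63.2%, against a median of 8.72% for 3990 genes within 2-fold of its level, of which 0.201% had one as large. The difference of 0.27 had a 95% confidence interval from -0.72 to 1.25 (limma adjusted p 0.99998), and without Ctrl replicate 2 it turned to -0.12, so no direction can be given for Smad4.

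Levels can be compared between genes only per length. CPM was divided by the kilobases of merged exon in GENCODE M21, and the scale in this paragraph is CPM per kilobase. For Tgfbr2, Acvr1b, Nrp1 and Smad2 the M21 model begins or ends elsewhere than the deposited gene, so the length used may not match the counted bases. The Tgfbr2 model extends past the deposited span, so its level per kilobase may be too low. In Ctrl cells Tgfbr2 stood highest at 54.8 ± 2.53 (SD, n = 3), and no library of another member reached its range. Smad3 (22.4 ± 2.60), Smad4 (21.8 ± 13.8) and Tgfb1 (16.3 ± 3.46) followed, with Smad4 overlapping both of its neighbours. Below them came Tgfbr1 at 9.95 ± 1.53, Smad2 at 7.77 ± 0.0513 and Tgfbr3 at 7.23 ± 2.65, where the range of Tgfbr3 overlapped those of Tgfbr1 and Smad2. Nrp1 at 3.61 ± 1.16 and Acvr1b at 2.40 ± 0.491 came last and overlapped.

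In cKO cells Tgfbr2, at 33.5 ± 1.97 CPM per kilobase, was still above Smad3 at 27.5 ± 2.16, and the ranges did not meet. The bottom of the order had turned over: Acvr1b at 1.96 ± 0.458 and Nrp1 at 1.16 ± 0.374 overlapped, and Tgfbr3 was lowest at 0.62 ± 0.241, overlapping Nrp1. Dividing by the longest coding transcript instead moved Tgfb1 to 37.8 ± 8.02 CPM per kilobase in Ctrl and to 44.4 ± 3.21 in cKO, where it then stood above Tgfbr2 at 33.9 ± 1.99. On that length the cKO ranges of Tgfbr2 and Smad3 overlapped. Nrp1 moved as well, to 9.82 ± 3.14 in Ctrl, above the means of Smad2 and Tgfbr3, and to 3.16 ± 1.02 in cKO, above the mean of Acvr1b. The places of Tgfb1 and Nrp1 in the order, and that of Tgfbr2 in cKO, therefore depend on the length used. No order was computed on lengths of the deposited gene spans.

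**Figure D3:**
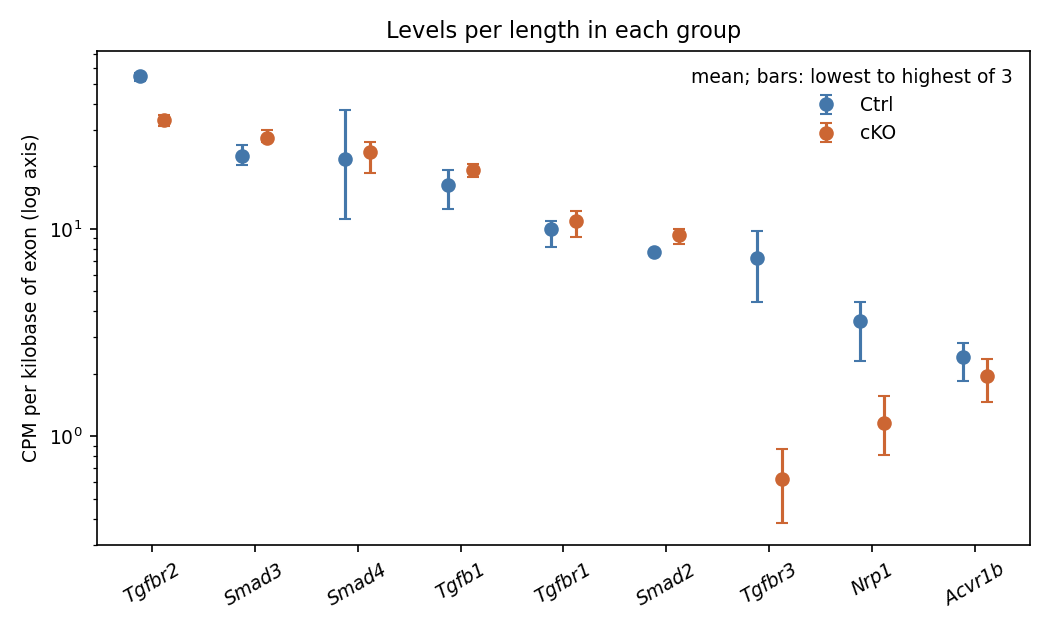
Levels in CPM per kilobase of merged exon (log axis) of the 9 genes in Ctrl and cKO, ordered by the Ctrl mean; points are means of 3 libraries and bars run from the lowest to the highest library. Tgfbr2 is highest in both groups, and Tgfbr3 moves from 7.23 in Ctrl to the lowest place in cKO.

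Ratios taken within a library do not depend on its scaling, and 5 were computed, from CPM per kilobase of merged exon. The ratio of Tgfbr2 to Tgfbr1, the 2 chains of the signalling receptor, was 5.27, 5.14 and 6.34 in Ctrl replicates 1 to 3 and 3.16, 2.58 and 3.66 in the cKO replicates. On this scale the Tgfbr2 count per length thus remained above that of Tgfbr1 in every cKO library. The count includes reads of any recombined Tgfbr2 transcript, so it does not give the level of intact type II transcript. The Tgfbr2 length used also differs from the deposited span. The groups did not overlap (two-sided exact permutation p = 0.1, the smallest that 3 libraries against 3 allow, and 0.167 after adjustment over the 5 ratios).

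The ratio of Tgfbr2 to its co-receptor Tgfbr3 moved the other way, from 7.48, 5.79 and 11.7 in Ctrl to 41.0, 51.2 and 87.8 in cKO, again without overlap (exact permutation p = 0.1, adjusted 0.167). The ratio of Smad3 to Smad2 was 2.89 ± 0.351 in Ctrl and 2.97 ± 0.490 in cKO (SD, n = 3 each; exact permutation p = 0.8), a difference smaller than the spread between libraries. Tgfbr1 to Acvr1b was 4.18 ± 0.322 in Ctrl and 5.62 ± 0.570 in cKO without overlap (SD, n = 3 each; exact permutation p = 0.1, adjusted 0.167). The ratio of Smad2 and Smad3 together to Smad4 ran from 0.786 to 2.96 in Ctrl and from 1.36 to 1.96 in cKO, the wide range in Ctrl coming with that of Smad4.

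The other genes of the pathway were read from 7 lists. The lists were chosen with earlier results of these data known, so their counts beside the background share are descriptive only. Among inhibitors of receptors and SMADs, which include several genes that TGF-beta itself induces, 3 of 17 tested members fell and none rose, where 0.459% of all tested genes were called lower: the SMAD co-repressor genes Skil (114 ± 19.5 to 22.0 ± 2.42 CPM, SD over 3 libraries, limma adjusted p 0.00241) and Ski (48.7 ± 10.5 to 13.9 ± 1.68 CPM, limma adjusted p 0.0156), and Pmepa1, whose product sequesters receptor-regulated SMADs (11.9 ± 2.06 to 2.76 ± 0.552 CPM, limma adjusted p 0.0385). With the block, 5 of the 17 fell, adding Smurf2 and Ldlrad4, against 1.64% of all tested genes. The list median was -0.12, against -0.038 for all tested genes. At an unadjusted limma p under 0.05, 3.68% of all tested genes were lower. Among the other SMADs, 0 of 3 tested members passed without the block and 1 was lower at that unadjusted p. This was the inhibitory SMAD gene Smad7, with 57.2, 69.4 and 64.9 CPM in the Ctrl libraries and 41.6, 35.3 and 30.6 CPM in cKO, and it passed with the block (limma adjusted p 0.0138). Smad1 and Smad5, which transduce BMP signals, differed by 0.053 and 0.086 and did not pass.

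Of the SMAD anchors and partners, 1 of 11 tested members rose and none fell, where 0.204% of all tested genes were called higher. This was Runx1, a RUNX transcription factor that can act with SMADs, which went from 41.7, 46.5 and 49.8 CPM in Ctrl to 80.7, 91.0 and 88.9 CPM in cKO (limma adjusted p 0.0189). The remaining lists had no call with or without the block. Other receptors of the family had 0 calls by limma among 9 tested members and 0 at an unadjusted p under 0.05, with a median of -0.14. Acvr2a, a type II receptor for activins, was the highest of them per length, with a Ctrl mean of 13.01 ± 4.51 CPM and a cKO mean of 12.9 ± 7.76 CPM (SD over 3 libraries). Eng and Rgmb came next, at 5.64 ± 4.64 and 10.2 ± 3.69 CPM in Ctrl.

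Other ligands had 0 calls by limma among 6 tested members. At an unadjusted limma p under 0.05, where 2.33% of all tested genes were higher, 1 ligand gene was higher. This was Gdf11 (11.4 ± 0.933 to 16.0 ± 1.85 CPM, SD, n = 3 each). Of the 6 ligand genes, the most abundant per length was Bmp7, with a Ctrl mean of 109 ± 19.5 CPM and a cKO mean of 131 ± 26.5 CPM. Tgfb3 had 2.47 ± 1.002 and 4.40 ± 3.45 CPM. Genes of latent TGF-beta storage and activation had 0 calls among 7 and 0 at an unadjusted p, led per length by Nrros with a Ctrl mean of 152 ± 9.59 CPM and a cKO mean of 169 ± 40.7 CPM, then Furin, which encodes a protease that cleaves the TGF-beta precursor, and Itgav, the integrin alpha V chain. The non-SMAD arm had 0 calls among 14 and 0 at an unadjusted p, with a median of 0.050; its leading genes per length, Cdc42, Rhoa and Mapk14, differed by 0.027, 0.050 and -0.028.

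**Figure D4:**
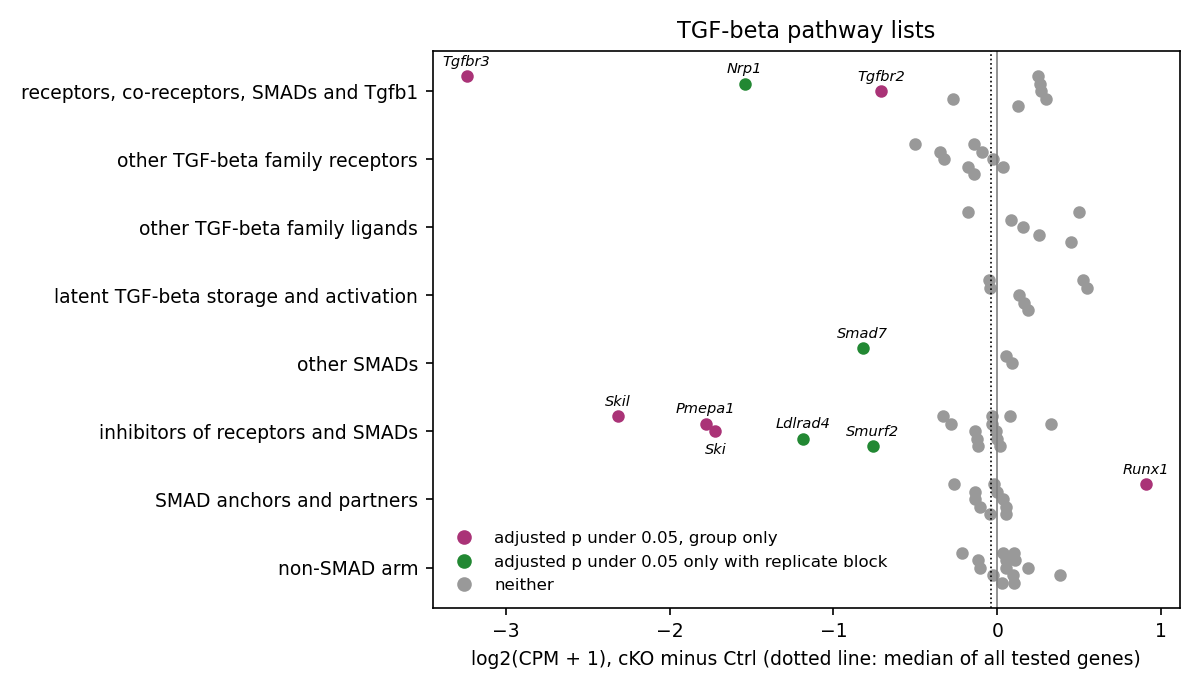
Difference in log2(CPM + 1), cKO minus Ctrl, of every tested gene of the 9 members (top row) and of the 7 pathway lists; purple points passed limma without the block, green points only with the replicate block, grey points neither, and the dotted line is the median of all tested genes at -0.038. Apart from Runx1, every coloured point lies below 0, and they fall in the member row and the rows of other SMADs and inhibitors.

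The genes whose levels were most like those of the falling members were sought by Pearson's r of log2(CPM + 1) over the 6 libraries among 10140 genes averaging 5 CPM or more. These values describe a search over many genes in 6 libraries, in which both replicate 3 libraries stand apart. Nearest to Tgfbr2 were Cd101 (r = 0.995), an immunoglobulin-family surface protein gene, Ctnna1 (0.995), which encodes alpha-catenin, and St8sia1 (0.995), which encodes a sialyltransferase. Cd101 ran from 93.5 to 104.5 CPM in Ctrl and 44.0 to 52.6 CPM in cKO, and St8sia1 from 24.8 to 34.7 CPM and 1.59 to 2.77 CPM. Nearest to Tgfbr3 were Lrig1 (0.9955), a transmembrane inhibitor of growth factor receptors, Gpr34 (0.990), a G protein-coupled receptor gene at 37.1 to 55.4 CPM in Ctrl and 3.44 to 7.70 CPM in cKO, and Anxa5 (0.990), an annexin gene. Nearest to Nrp1 were Stx1a (0.995), L1cam (0.990), which encodes an adhesion molecule at 40.4 to 66.6 CPM in Ctrl and 23.0 to 34.0 CPM in cKO, and Zdhhc20 (0.986).

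The libraries held between 28832779 and 68092478 reads, so that 1 read was worth 0.0147 to 0.0347 CPM, and counting error was small for all 9 genes, the lowest of which rested on at least 163 reads. Both replicate 3 libraries stood apart: 4406 (Ctrl) and 4590 (cKO) genes were listed at 0 there, against at most 5 in the other 4 libraries. Among the members, Tgfbr1, Acvr1b, Tgfbr3 and Nrp1 had their lowest value of each group in replicate 3. As each group holds 1 such library, the differences within each replicate number are given above beside the pooled ones.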

How the data were processed

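Per the submitters' processing notes, reads were handled with Trimmomatic 0.33, STAR 2.5.2, HTSeq 0.6.1 and edgeR on build mm10; the annotation and the strand setting of the counting are not given in the sources used here. The authors deposited CPM per gene and library, and, per the file headers, their own log2 fold change, average log2 CPM, likelihood-ratio score, p-value and adjusted p-value. The columns named WT and KO were taken as Ctrl and cKO by replicate number. Every CPM value was a whole multiple of 1 read (100% within 0.01 reads), so reads were recovered, and the table holds no unassigned reads (99.4% to 99.9% of each library total was listed). The deposited width column equals exon lengths summed over transcripts for 59.1% of 17825 genes found in GENCODE M21 (GRCm38) and was not used as a length.

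The test was limma 3.58.1 on log2(CPM + 1) for genes averaging 1 CPM or more, with group as the only term, trend and robust moderation, Benjamini-Hochberg adjustment over all 15691 tested genes, in R 4.3.3. It was also run on simulated counts with the same dispersion for every gene and no replicate effect. These libraries differ from that setting, so the simulation does not show how the fit performs on them. Deviations from the group means correlated at 0.855, 0.687 and 0.924 between same-numbered libraries, and the numbers were taken to pair the libraries. However, Ctrl replicate 2 correlated slightly more with cKO replicate 1 (0.718), and Ctrl replicate 1 correlated with cKO replicate 2 at 0.578. These values set both replicate 3 libraries apart but do not settle how replicates 1 and 2 pair. Alternatives were edgeR 4.0.16, DESeq2 1.42.0, limma-voom, other scalings, pseudocounts and filters, the block and left-out libraries. Members and lists were chosen with earlier results of these data known. All members were named; from each list, genes past the threshold were named (up to 6), or otherwise the 3 highest per kilobase, and for likeness the 3 genes of highest r with each falling member; Smurf2, Ldlrad4 and the markers described singly were chosen after their values were seen.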

Additional observations from a re-analysis of the deposited data

How the results depend on the processing

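Against 2 members and 104 genes past the threshold, the replicate block gave 3 members and 451 genes, edgeR's quasi-likelihood test 0 members (5 at an unadjusted p under 0.05) and 41 genes, edgeR with the replicate block 3 and 469, DESeq2 4 and 552, limma-voom 1 and 61, the block after TMM scaling 3 and 514, and replicates 1 and 2 alone 3 and 291. TMM scaling and DESeq2-type size factors gave 1 member each, Tgfbr3. DESeq2 gave no adjusted p to 3042 genes. Fits that left out 1 library gave from 0 members and 14 genes (without Ctrl replicate 2) to 2 members and 85 genes (without cKO replicate 3); with 0 members, 4 had an unadjusted limma p under 0.05. The block without both libraries of 1 replicate number, chosen after seeing the data, gave 3 members each time and 388, 387 and 943 genes without replicates 1, 2 and 3, the same 3 members as with the block on all libraries. Higher genes were 30.8% of calls without the block and 43.0% with it. Tgfbr2, Tgfbr3, Nrp1, Acvr1b, Tgfb1, Smad2 and Smad3 kept their direction in every fit. Over the fits that left out 1 library, Tgfbr1 ranged from -0.00627 (without Ctrl replicate 3) to 0.24 and Smad4 from -0.12 (without Ctrl replicate 2) to 0.74, and Smad4 was -0.19 under the replicate block without replicate 2. The cause of these changes was not tested. Each member rested on at least 163 reads in every library, and 3 libraries against 3 allow no exact permutation p under 0.1.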
